A study of Mus musculus with 12 samples.

Results

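The 66 genes described here encode conjugating enzymes and the aldehyde and alcohol dehydrogenases, and they are 66 of the 20819 genes in the deposited table. They were chosen by name alone: protein-coding genes whose symbol begins with Gst, Ugt, Sult or Aldh, or with Adh and a digit, without Aldh18a1, a proline synthesis enzyme. There are 23 Gst, 13 Ugt, 7 Sult, 18 Aldh and 5 Adh genes. The samples are mouse kidney tubuloids, which are clusters of tubular epithelial cells grown in Matrigel from the renal cortex of 4 wildtype mice. The groups were tubuloids given myoglobin and 100 nM dexamethasone, tubuloids given myoglobin alone, and vehicle-treated tubuloids. All were collected after 12 h, with 4 libraries each. Myoglobin, the haem protein of muscle, was given to injure the cells. Dexamethasone is a synthetic glucocorticoid. The labels give no myoglobin dose. Dexamethasone without myoglobin was not analysed here. The labels number the libraries of each group 1 to 4 without tying a number to a mouse, so p-values measure only the spread between these samples, which may be technical.

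Cells clear foreign and internally made chemicals in stages. Dehydrogenases oxidise alcohols to aldehydes and aldehydes to acids, and conjugating enzymes then attach a water-soluble group that transporters can export. Glutathione S-transferases (GSTs) attach glutathione, UDP-glucuronosyltransferases (UGTs) attach glucuronic acid, and sulfotransferases (SULTs) attach sulfate from the donor PAPS. In kidney tubules these enzymes act on drugs, lipid peroxidation products and hormones, and several aldehyde dehydrogenases (ALDHs) and alcohol dehydrogenases (ADHs) also work in ordinary metabolism, such as the breakdown of amino acids, folate chemistry and the making of retinoic acid. Many of the genes lie in tandem clusters that arose by duplication.

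The 5 windows of 300 bases around RefSeq transcription starts (250 bases before to 50 after, build GRCm38.p6, written 5′ to 3′ on the gene's strand) printed here belong to genes with called changes described below. Sult1d1 and Sult1a1 are the sulfotransferases that rose with dexamethasone, Adh1 and Adh6a are neighbouring alcohol dehydrogenase genes that fell with myoglobin, and Gsta3 is an alpha-class GST that rose with it. Capitals mark matches, on either strand, to 3 words: TGACNNNGC, the core of the antioxidant response element; GCGTG, the core of the xenobiotic response element; and AGAACA, the core word of the glucocorticoid response element.
Sult1d1 (chr5:87568957-87569256, minus strand): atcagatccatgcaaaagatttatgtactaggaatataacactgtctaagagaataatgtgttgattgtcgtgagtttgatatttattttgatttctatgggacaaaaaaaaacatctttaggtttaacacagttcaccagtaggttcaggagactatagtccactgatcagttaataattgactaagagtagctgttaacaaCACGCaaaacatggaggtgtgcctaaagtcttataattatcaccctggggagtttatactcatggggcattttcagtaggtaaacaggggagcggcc
Sult1a1 (chr7:126676369-126676668, minus strand): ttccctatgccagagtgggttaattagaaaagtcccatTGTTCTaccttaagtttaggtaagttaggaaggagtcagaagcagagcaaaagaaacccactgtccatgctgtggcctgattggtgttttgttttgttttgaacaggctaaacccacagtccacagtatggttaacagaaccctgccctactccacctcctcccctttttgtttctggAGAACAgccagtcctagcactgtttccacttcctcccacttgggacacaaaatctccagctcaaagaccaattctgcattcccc
Adh1 (chr3:138277335-138277634, plus strand): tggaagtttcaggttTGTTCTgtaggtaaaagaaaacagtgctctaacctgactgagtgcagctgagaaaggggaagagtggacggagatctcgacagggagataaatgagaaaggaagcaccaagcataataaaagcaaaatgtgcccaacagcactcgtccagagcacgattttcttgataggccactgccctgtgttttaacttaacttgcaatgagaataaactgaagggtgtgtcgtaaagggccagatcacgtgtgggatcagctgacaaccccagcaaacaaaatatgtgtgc
Adh6a (chr3:138313036-138313335, plus strand): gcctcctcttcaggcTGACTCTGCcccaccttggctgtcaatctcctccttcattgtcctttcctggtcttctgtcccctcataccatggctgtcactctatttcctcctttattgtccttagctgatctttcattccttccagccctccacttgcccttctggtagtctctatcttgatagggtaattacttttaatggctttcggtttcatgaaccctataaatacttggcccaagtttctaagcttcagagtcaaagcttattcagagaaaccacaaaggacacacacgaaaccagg
Gsta3 (chr1:21240335-21240634, plus strand): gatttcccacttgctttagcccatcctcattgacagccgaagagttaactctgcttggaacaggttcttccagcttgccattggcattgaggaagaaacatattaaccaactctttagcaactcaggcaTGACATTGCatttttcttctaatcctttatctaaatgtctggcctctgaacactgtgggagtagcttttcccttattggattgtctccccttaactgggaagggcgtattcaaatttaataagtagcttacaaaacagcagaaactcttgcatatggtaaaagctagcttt
The Sult1a1 window holds AGAACA at -212 and -34 from the start, and the Sult1d1 window holds GCGTG at -47 and no AGAACA. The Adh1 window holds AGAACA at -235, and the Adh6a and Gsta3 windows hold TGACNNNGC at -235 and -121. Windows were found for 55 of the 66 genes, 69 windows in all. AGAACA occurred in 16 of these (23.2%), against 19% of all 32851 windows; TGACNNNGC occurred in 6 (8.7%), against 12.4%; and GCGTG occurred in 20 (29%), against 32.4%. In the members' windows 1 pair of matches to different words overlapped. A match describes the letters only.

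The deposited values are whole numbers whose steps show reads scaled to a common library size and rounded, called normalised reads here. They summed to 5.25 to 5.73 M per library, and the reads before scaling, estimated from the steps in the values, were 3.25 to 5.92 M. Replicate 4 of myoglobin with dexamethasone had the 3.25 M, and it was the highest of its group for 19 of the 49 enzyme genes tested and the lowest for 11. The 8 markers of tubular epithelium summed to 9385 to 12562 normalised reads with myoglobin and dexamethasone, 8934 to 9378 with myoglobin and 9463 to 9876 with vehicle, so the labelled cell type was present in every library. The 11 proximal tubule markers in the table summed to 731 to 853 normalised reads with myoglobin and dexamethasone, 744 to 919 with myoglobin and 631 to 795 with vehicle. Among them Cubn, Slc34a1 and Acsm2 reached at most 5 in any library. Slc27a2 averaged 226, 206 and 190 and Ggt1 184, 177 and 213 with both agents, with myoglobin and with vehicle, and Lrp2 averaged 332 normalised reads with myoglobin and dexamethasone, 387 with myoglobin and 233 with vehicle. The 8 collecting duct markers in the table summed to 1011 to 1069 with myoglobin and dexamethasone and 1008 to 1126 with myoglobin, below the 1668 to 2010 with vehicle. The 9 fibroblast and stroma markers summed to 179 to 275 with myoglobin and dexamethasone, 295 to 349 with myoglobin and 406 to 478 with vehicle. The 4 hepatocyte markers in the table summed to no more than 17 in any library. Sums of further lists follow in the order both agents, myoglobin and vehicle. The 4 thick limb and distal tubule markers in the table gave 2972 to 3239, 2239 to 2519 and 2609 to 3290. The 5 podocyte markers gave 612 to 723, 569 to 799 and 666 to 991. The 7 immune markers in the table gave 529 to 626, 480 to 583 and 571 to 687. The 7 endothelial markers gave 92 to 110, 90 to 121 and 124 to 134. In bulk RNA, fewer cells of a type and less RNA per cell cannot be told apart.

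Per kilobase of exons, the scale on which genes are compared here, GSTs and ALDHs were the abundant families (the plot of levels per kilobase). The 23 Gst genes summed to 3049 ± 317 normalised reads per kb with myoglobin and dexamethasone, 2696 ± 114 with myoglobin and 2636 ± 86.5 with vehicle (SD, n = 4 each). Replicates 1 to 4 with both agents stood at 2956, 2848, 2872 and 3519, so replicate 4 raised that mean. The highest myoglobin library stood at 2866. The 18 Aldh genes summed to 2029 ± 110 per kb with myoglobin and dexamethasone, 1845 ± 46.2 with myoglobin and 1688 ± 58 with vehicle. The 5 Adh genes summed to 190 ± 2.81 per kb with myoglobin and dexamethasone and 165 ± 7.46 with myoglobin, against 276 ± 19.9 with vehicle. The 7 Sult genes summed to 329 ± 6.23 per kb with myoglobin and dexamethasone, against 163 ± 20.4 with myoglobin and 182 ± 8.01 with vehicle. The 13 Ugt genes had the lowest sum, at 120 ± 8.09 per kb with myoglobin and dexamethasone, 113 ± 11.9 with myoglobin and 104 ± 4.89 with vehicle. The Ugt1a genes among them share 50.3% to 60.6% of their exonic bases with other genes on the same strand. How reads on those bases were counted is not known, so the Ugt level, its rank and the shares within it are uncertain. For the Sult sum the 4 libraries with dexamethasone lay above the other 8, and for the Adh sum the 8 libraries with myoglobin lay below the 4 with vehicle.

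**Figure D1:**
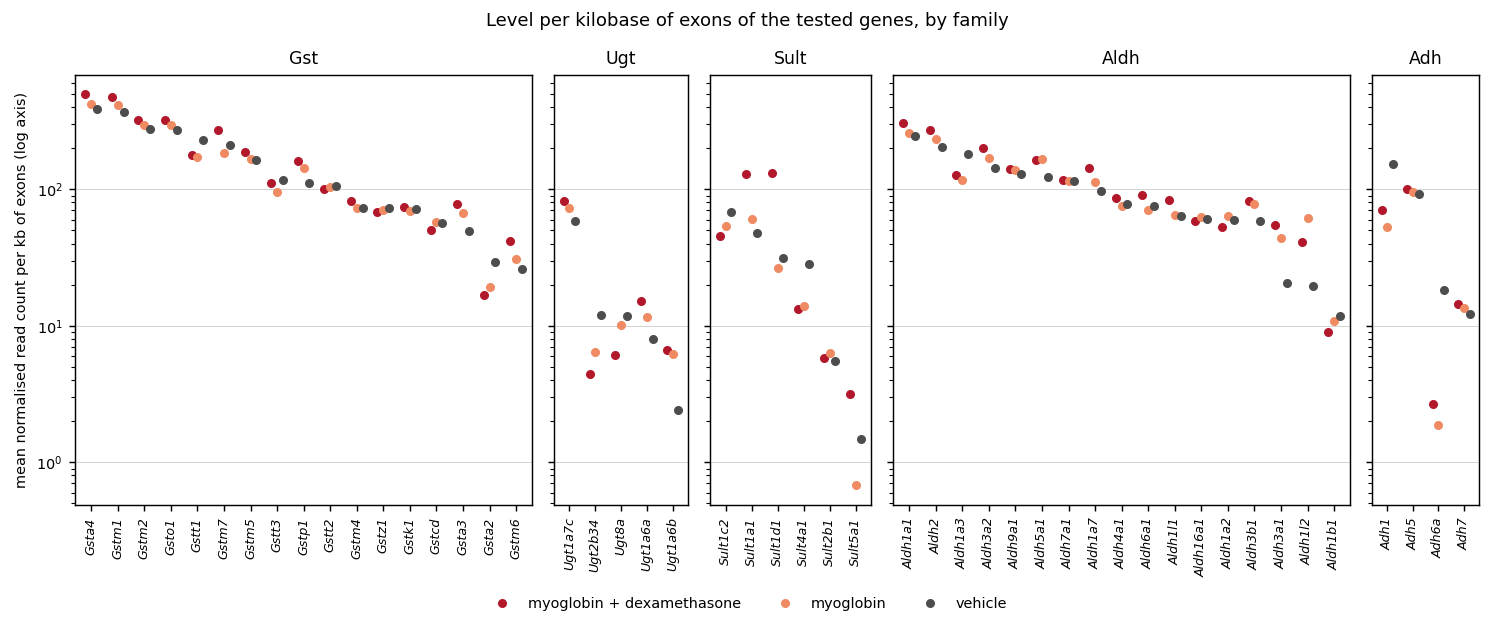
Mean deposited value per kilobase of exons (log axis) of the 49 tested genes by family, in tubuloids given myoglobin with dexamethasone, myoglobin or vehicle (n = 4 libraries each, means only). Gsta4, Ugt1a7c, Sult1c2, Aldh1a1 and Adh1 lead their families with vehicle, and Sult1d1 and Sult1a1 lead the sulfotransferases with dexamethasone at 131 and 130 normalised reads per kb.

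Single genes led the Adh and Ugt families, and the leading Sult gene differed between groups. Adh1 made up 37.3% ± 3.68 of the Adh level per kb with myoglobin and dexamethasone and 32.2% ± 3.16 with myoglobin, against 55.4% ± 4.02 with vehicle. Adh5 made up 53.2% ± 4.00 with myoglobin and dexamethasone and 58.2% ± 1.86 with myoglobin, against 33.3% ± 2.96 with vehicle, so Adh1 came first in the vehicle group and Adh5 in both others. Sult1d1 made up 39.7% ± 0.673 of the Sult level with both agents, 16.6% ± 1.69 with myoglobin and 17.2% ± 1.94 with vehicle. With both agents Sult1a1 stood beside it at 39.4% ± 1.91. Sult1a1 came first with myoglobin at 37.6% ± 2.65, and Sult1c2 with vehicle at 37% ± 1.92. Ugt1a7c held 68.0% ± 3.17 of the Ugt level with both agents, 64.2% ± 3.03 with myoglobin and 56.6% ± 3.30 with vehicle. Gsta4, Gstm1, Gstm2 and Gsto1 were the highest Gst genes per kb in every group, and Aldh1a1 and Aldh2 the highest Aldh genes.

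Of the 66 genes, 49 reached 10 normalised reads in at least 4 of the 12 libraries and were tested. The other 17 never exceeded 12 in any library. They were 6 Gst genes (Gsta1, Gstm3, Gsto2, Gstp2, Gstp3 and Gstt4), 8 Ugt genes (Ugt1a1, Ugt1a2, Ugt1a9, Ugt1a10, Ugt2b1, Ugt2b5, Ugt2b35 and Ugt2b37), Sult1b1, Aldh3b2 and Adh6b. Ugt1a1, the UGT that conjugates bilirubin, had 6, 8, 12 and 7 normalised reads with myoglobin and dexamethasone, 4, 5, 7 and 2 with myoglobin, and 9, 7, 11 and 8 with vehicle. Each change below is a log2 fold change of the value plus 1, which understates changes of low genes, from 1 limma fit over all 14558 genes tested, and a gene passed at a Benjamini-Hochberg adjusted p below 0.05 over those genes.

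With myoglobin against vehicle, 11 of the 49 genes (22.4%) rose and 9 (18.4%) fell. Of all genes tested, 8.71% rose and 9.62% fell in this comparison. The median change of the 49 was 0.06, against 0.00 over all genes. With myoglobin and dexamethasone against myoglobin, 10 of the 49 (20.4%) rose and 1 (2.04%) fell, where 3.08% of all genes rose and 3.9% fell, with a median of 0.16 against 0.01. With myoglobin and dexamethasone against vehicle, 24 (49%) rose and 9 (18.4%) fell, where 13.9% of all genes rose and 14.6% fell, with a median of 0.21 against 0.00. These 3 comparisons share their libraries. The counts include Adh6a, Sult5a1 and Ugt1a6b, which have no library at 10 in at least 1 group and were tested only through the groups where they are high. Without these 3 the counts were 10 higher and 7 lower with myoglobin, 9 and 1 with added dexamethasone, and 22 and 8 with both agents against vehicle. Without replicate 4 of myoglobin with dexamethasone the 6 counts were 13, 8, 9, 1, 23 and 9, in the order given. The plot of changes gives all 49 genes by family.

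**Figure D2:**
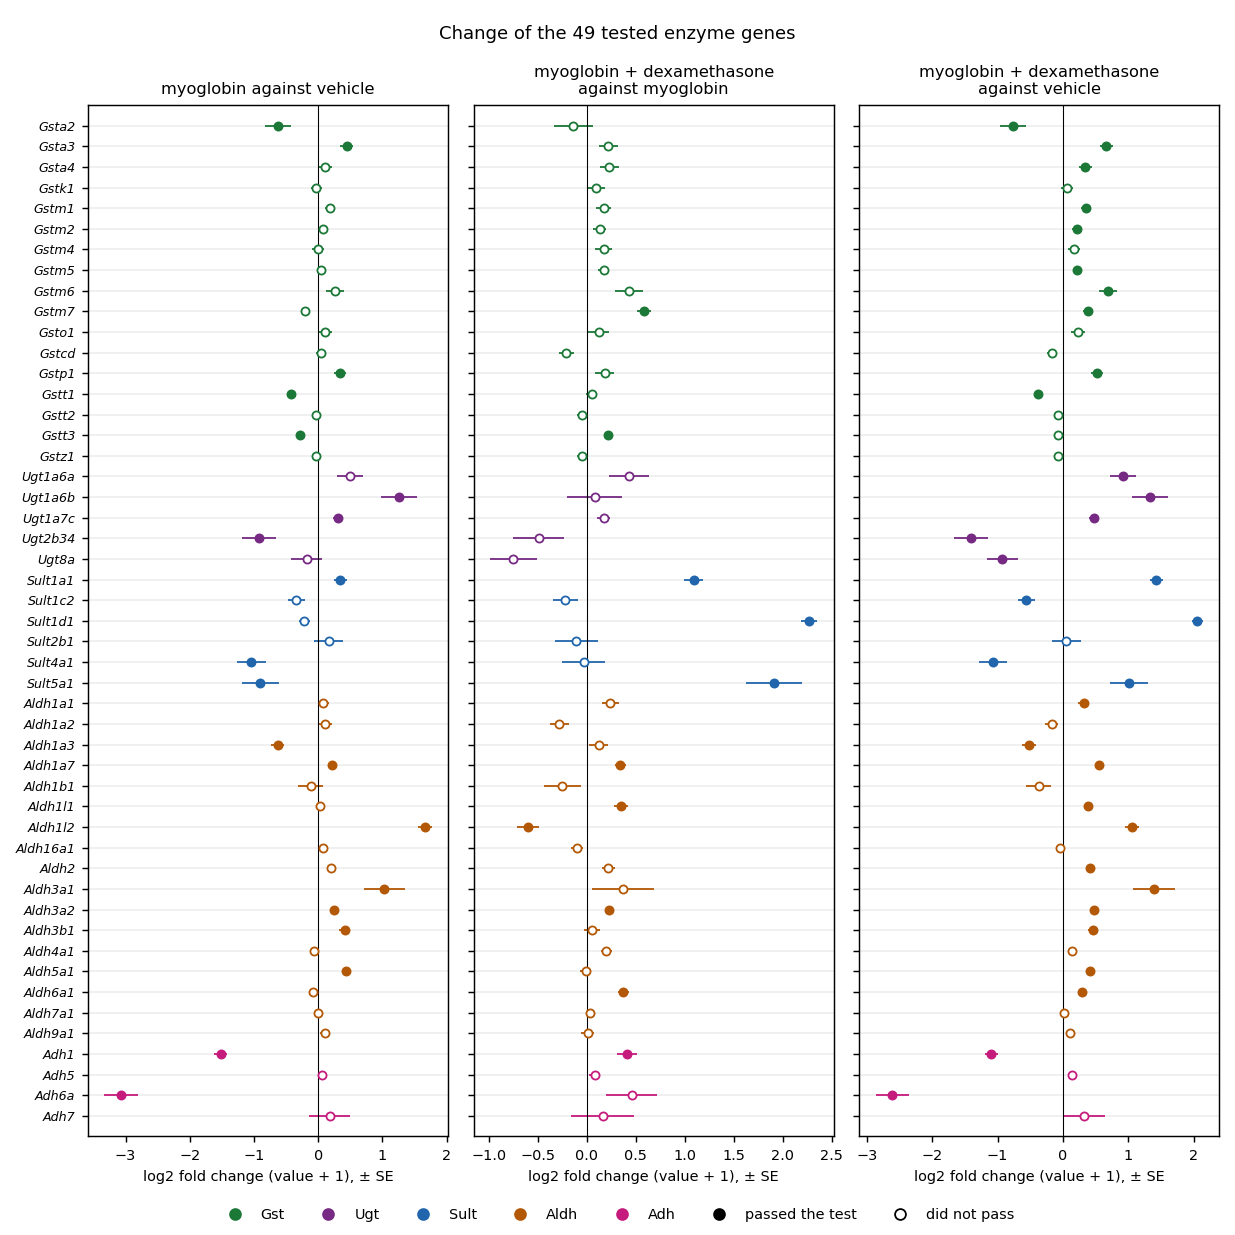
Log2 fold change (value + 1) with its SE for each of the 49 tested genes, coloured by family, in the 3 comparisons. Filled points passed the test. They were 20 genes in myoglobin against vehicle, 11 in myoglobin with dexamethasone against myoglobin, and 33 in myoglobin with dexamethasone against vehicle. Among them are Adh6a, Sult5a1 and Ugt1a6b, which were tested only through the groups where they are high. Sult1d1 at 2.27 is the farthest from 0 with added dexamethasone. Adh6a at -3.07 is the farthest with myoglobin, but only vehicle libraries reached 10, so it had to differ.

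The sulfotransferases carried the largest dexamethasone rises. Sult1d1, which sulfonates catecholamines such as dopamine in the mouse, had 320, 331, 314 and 322 normalised reads with myoglobin and dexamethasone, 67, 67, 64 and 65 with myoglobin, and 65, 86, 77 and 80 with vehicle. The 4 libraries with dexamethasone were all high and near each other, and the other 8 all lay far below them. Against myoglobin Sult1d1 rose by 2.27 ± 0.085 (SE; adjusted p = 3.47e-10), 4.84-fold, which was rank 1 by p and rank 5 by size of rise among the 14558 genes. Against vehicle it rose by 2.06 ± 0.085 (adjusted p = 1.92e-10). Myoglobin alone gave -0.22 (adjusted p = 0.0935), which passed at -0.30 without replicate 1 of vehicle (adjusted p = 0.0153) and at -0.26 with quality weights (adjusted p = 0.0178).

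Sult1a1, the main phenol sulfotransferase, had 201, 185, 193 and 204 normalised reads with myoglobin and dexamethasone, 105, 99, 85 and 79 with myoglobin, and 76, 66, 67 and 80 with vehicle. All libraries with dexamethasone lay above the rest, and the myoglobin and vehicle libraries overlapped at their edges. Sult1a1 rose by 1.09 ± 0.10 when dexamethasone was added (adjusted p = 1.31e-05) and by 1.43 ± 0.10 against vehicle (adjusted p = 7.56e-08). Its rise with myoglobin alone, 0.34 ± 0.10 (adjusted p = 0.0288), missed the threshold when replicate 1 or 2 of myoglobin or replicate 2 or 3 of vehicle was left out (0.27 to 0.31, adjusted p = 0.0862 to 0.0902). Sult5a1 was close to the limit of measurement, with 14, 13, 18 and 11 normalised reads with myoglobin and dexamethasone, 4, 3, 2 and 3 with myoglobin, and 7, 5, 5 and 9 with vehicle. It reached 10 in the libraries with dexamethasone only, so it was tested because of them and had to differ. Its rise against myoglobin was 1.91 ± 0.29 (adjusted p = 0.000896), or 0.88 with a pseudocount of 10. Against vehicle it was 1.01 ± 0.29 higher with both agents (adjusted p = 0.0156). Its fall of 0.90 ± 0.29 with myoglobin (adjusted p = 0.0404) missed the threshold without replicate 2, 3 or 4 of myoglobin or replicate 1 or 4 of vehicle (adjusted p = 0.0724 to 0.122), and with the pseudocount of 10 (-0.34, adjusted p = 0.104).

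**Figure D3:**
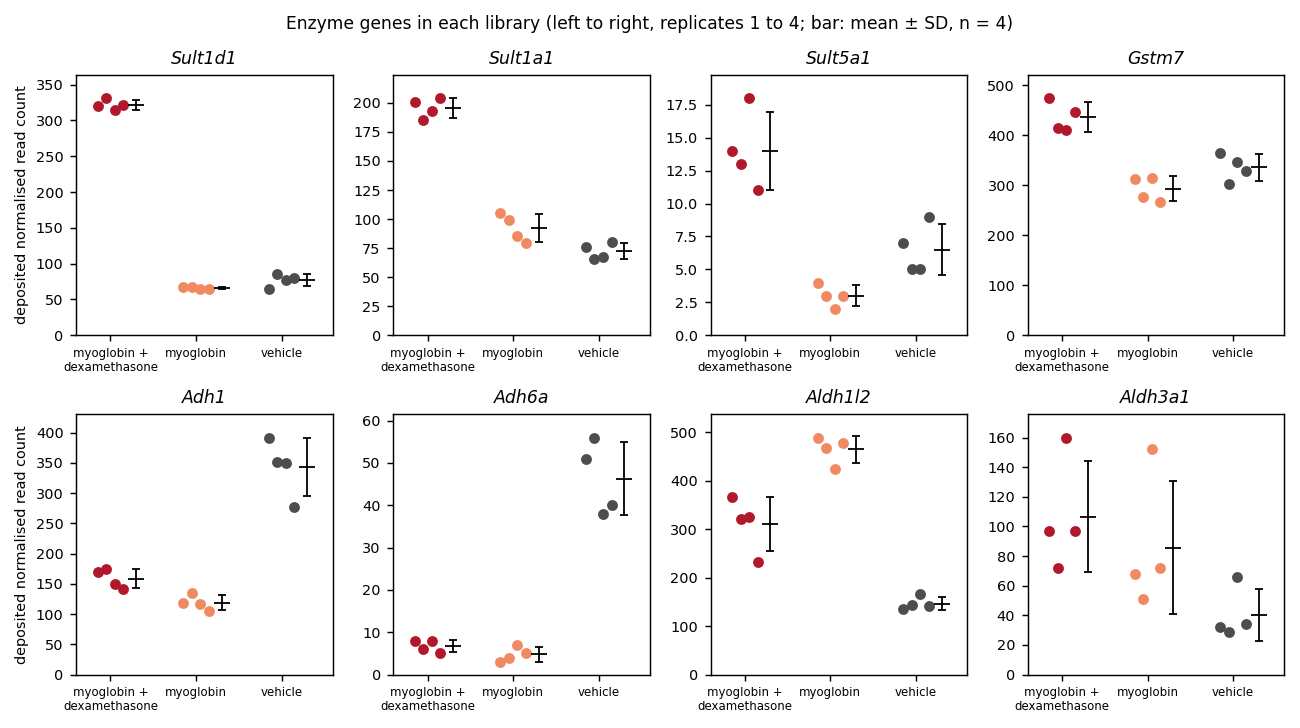
Deposited normalised read counts of 8 enzyme genes in each of the 12 libraries (linear axes from 0; points are replicates 1 to 4, bars mean ± SD, n = 4). Sult1d1 separates the libraries with dexamethasone (314 to 331) from the others (64 to 86), while Adh1 and Adh6a separate vehicle from both myoglobin groups. Adh6a and Sult5a1 were tested only through the group where they are high and had to differ.

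The remaining sulfotransferases did not rise in any comparison. Sult4a1, a brain-enriched family member, had 45, 33, 28 and 28 normalised reads with myoglobin and dexamethasone, 40, 47, 21 and 32 with myoglobin, and 75, 81, 71 and 56 with vehicle. Both myoglobin groups lay below vehicle, with changes of -1.07 ± 0.22 for the combination (adjusted p = 0.00236) and -1.04 ± 0.22 for myoglobin (adjusted p = 0.00379). Sult1c2, the highest sulfotransferase per kb with vehicle, had 82, 100, 79 and 77 normalised reads with the combination, 94, 128, 89 and 86 with myoglobin and 132, 137, 116 and 114 with vehicle. It fell by 0.56 ± 0.13 against vehicle with both agents (adjusted p = 0.00418), and its -0.34 with myoglobin alone passed where replicate 2 of myoglobin was left out (-0.47, adjusted p = 0.011). Sult2b1, which sulfonates cholesterol and hydroxysteroids, lay between 16 and 33 normalised reads in all libraries, with overlapping groups, and did not pass. Of the 11 tested genes of sulfate supply, Papss2, which makes the donor PAPS, fell with myoglobin (-0.23 ± 0.054, adjusted p = 0.00639), as did the sulfate transporter Slc26a2 (-0.31 ± 0.083, adjusted p = 0.0159), and 0 rose by limma, also at an unadjusted p below 0.05. Dexamethasone raised 1 of the 11, Bpnt1, which breaks down the spent donor, by 0.18 ± 0.046 (adjusted p = 0.0266). Of all genes tested, 8.71% rose and 9.62% fell with myoglobin, and 3.08% rose and 3.9% fell with added dexamethasone.

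The alcohol dehydrogenases lie in 1 cluster on mouse chromosome 3 and did not move together. Adh1, the class I enzyme that oxidises ethanol and retinol, had 169, 174, 149 and 142 normalised reads with myoglobin and dexamethasone, 118, 135, 117 and 105 with myoglobin, and 392, 352, 350 and 277 with vehicle. The groups did not overlap, and vehicle was highest. Adh1 fell by 1.52 ± 0.10 with myoglobin (adjusted p = 6.15e-08) and by 1.10 ± 0.10 with both agents against vehicle (adjusted p = 1.72e-06). It was higher with dexamethasone than with myoglobin alone by 0.41 ± 0.10 (adjusted p = 0.0265), a rise that missed the threshold without replicate 1 or 2 of the combination or replicate 1, 3 or 4 of myoglobin (0.36 to 0.41, adjusted p = 0.0505 to 0.0919).

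Adh6a, its neighbour, had 8, 6, 8 and 5 normalised reads with myoglobin and dexamethasone, 3, 4, 7 and 5 with myoglobin, and 51, 56, 38 and 40 with vehicle. Only vehicle libraries reached 10, so the gene was tested because of them and had to differ. It fell by 3.07 ± 0.26 with myoglobin (adjusted p = 5.83e-07), a change of -1.93 with a pseudocount of 10. With both agents it fell by 2.61 ± 0.26 against vehicle (adjusted p = 2.77e-06). The summed collecting duct, fibroblast and stroma, and endothelial markers given above were also lower in both myoglobin groups than with vehicle. The summed thick limb and distal tubule markers were lower than vehicle with myoglobin alone. Single markers differed: Slc26a4 of the collecting duct averaged 162 normalised reads with both agents and 178 with myoglobin, against 88.5 with vehicle, and Dcn of the stroma averaged 13.5, 28.8 and 18.2 with both agents, with myoglobin and with vehicle. In that order of groups, Slc12a3 of the distal tubule averaged 633, 458 and 1044, Kcnj1 296, 242 and 512, and Umod 42.2, 42 and 86.5. Calb1 of the same list went the other way, at 2106, 1698 and 1373. The part of these marker changes in the falls of Adh1, Adh6a and Sult4a1 was not tested. Adh5, the class III enzyme that removes formaldehyde as its glutathione adduct, had 546, 501, 534 and 610 normalised reads with both agents, 530, 507, 538 and 499 with myoglobin, and 509, 464, 504 and 506 with vehicle. Its groups overlapped, and the changes of 0.06 with myoglobin, 0.08 with added dexamethasone and 0.14 with both against vehicle did not pass (adjusted p = 0.476, 0.443 and 0.0691), although the last passed without replicate 2 of the combination (0.18, adjusted p = 0.0249). Adh7, the class IV enzyme, ranged widely within groups, with 37, 65, 62 and 55 normalised reads with both agents, 33, 35, 76 and 60 with myoglobin, and 22, 39, 65 and 57 with vehicle, and did not pass.

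Among the aldehyde dehydrogenases, 6 of 17 tested genes rose and 1 fell with myoglobin, where 8.71% of all genes rose and 9.62% fell. The largest rise was that of Aldh1l2, the mitochondrial enzyme that oxidises formyltetrahydrofolate, with 366, 320, 325 and 232 normalised reads with myoglobin and dexamethasone, 489, 468, 424 and 477 with myoglobin, and 135, 143, 167 and 141 with vehicle. The 3 groups did not overlap. Aldh1l2 rose by 1.66 ± 0.11 with myoglobin (adjusted p = 3.53e-08) and was the 1 gene of the 49 that fell when dexamethasone was added, by 0.60 ± 0.11 (adjusted p = 0.00402); against vehicle the combination stood 1.06 ± 0.11 higher (adjusted p = 3.84e-06). Its cytosolic relative Aldh1l1 had 394, 377, 385 and 345 normalised reads with both agents, 306, 299, 290 and 279 with myoglobin, and 288, 315, 245 and 304 with vehicle. Aldh1l1 rose by 0.35 ± 0.071 with added dexamethasone (adjusted p = 0.00685), the direction opposite to Aldh1l2, and its 0.03 with myoglobin did not pass (adjusted p = 0.806).

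Aldh3a1, an enzyme for aromatic and lipid aldehydes known as a target of the aryl hydrocarbon receptor, had 97, 72, 160 and 97 normalised reads with both agents, 68, 51, 152 and 72 with myoglobin, and 32, 29, 66 and 34 with vehicle. Replicate 3 was the highest library of each group, and the myoglobin and vehicle libraries overlapped. The rise of 1.03 ± 0.32 with myoglobin (adjusted p = 0.0345) missed the threshold without replicate 3 or 4 of myoglobin or without replicate 1, 2 or 4 of vehicle (0.71 to 1.07, adjusted p = 0.0581 to 0.116). Over all alternatives this rise ran from 0.71 to 1.29 (adjusted p = 3.82e-06 to 0.116). With both agents against vehicle the rise was 1.40 ± 0.32 (adjusted p = 0.00408). The Aldh3a1 change of 0.37 ± 0.32 with added dexamethasone did not pass (adjusted p = 0.519). With the replicate number as a block it passed (0.37 ± 0.11, adjusted p = 0.0388). Aldh3a2, which oxidises fatty aldehydes, had 1086, 1093, 1100 and 1205 normalised reads with both agents, 984, 945, 935 and 961 with myoglobin, and 829, 789, 791 and 803 with vehicle. Its groups were fully separated in that order: it rose by 0.25 ± 0.040 with myoglobin (adjusted p = 0.00033) and again by 0.23 ± 0.040 with dexamethasone (adjusted p = 0.003).

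Some of the further ALDHs act in the mitochondria or on membrane lipids. Aldh5a1, the succinate semialdehyde dehydrogenase, had 1012, 860, 938 and 923 normalised reads with both agents, 990, 932, 922 and 919 with myoglobin, and 764, 716, 678 and 644 with vehicle, a rise of 0.43 ± 0.056 with myoglobin (adjusted p = 5.98e-05) and -0.01 with added dexamethasone (adjusted p = 0.917). Aldh3b1 likewise rose with myoglobin by 0.41 ± 0.081 (adjusted p = 0.00196), with 150 to 178 normalised reads with both agents, 144 to 170 with myoglobin and 113 to 130 with vehicle. Aldh6a1, the methylmalonate semialdehyde dehydrogenase of valine breakdown, had 550, 528, 553 and 487 normalised reads with both agents, 431, 399, 422 and 387 with myoglobin and 458, 430, 447 and 401 with vehicle. It rose by 0.37 ± 0.055 with added dexamethasone (adjusted p = 0.000856), and its -0.08 with myoglobin did not pass (adjusted p = 0.344). Aldh2, the mitochondrial acetaldehyde dehydrogenase, had 1249 to 1636 normalised reads with both agents, 1136 to 1257 with myoglobin and 981 to 1109 with vehicle. It rose by 0.42 ± 0.069 with both agents against vehicle (adjusted p = 0.000352), while 0.20 with myoglobin and 0.22 with added dexamethasone did not pass (adjusted p = 0.0597 and 0.0694). The 0.20 passed without replicate 2 or 4 of the combination (adjusted p = 0.0444 and 0.00344), with only the 2 groups in the fit (adjusted p = 0.00502), with quality weights (adjusted p = 0.00291), with library totals (0.18, adjusted p = 0.0393) and with quantile normalization (0.16, adjusted p = 0.0215). The 0.22 passed at 0.27 without replicate 2 (adjusted p = 0.0329). Aldh4a1, Aldh7a1, Aldh9a1, Aldh16a1 and Aldh1b1 did not pass in any comparison as fitted. Aldh4a1 passed against myoglobin with upper-quartile scaling (0.20, adjusted p = 0.046) and quantile normalization (0.19, adjusted p = 0.0456), and in both comparisons of the combination without its replicate 3 (0.24 against myoglobin, adjusted p = 0.0256, and 0.18 against vehicle, adjusted p = 0.0315).

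Retinoic acid is made by the 3 retinaldehyde dehydrogenases Aldh1a1, Aldh1a2 and Aldh1a3. Aldh1a3 had 680, 528, 562 and 573 normalised reads with both agents, 628, 487, 563 and 485 with myoglobin, and 994, 809, 846 and 713 with vehicle. Vehicle lay above both other groups, and Aldh1a3 fell by 0.63 ± 0.10 with myoglobin (adjusted p = 0.000356) and by 0.52 ± 0.10 with both agents against vehicle (adjusted p = 0.00153). Aldh1a1, the highest ALDH per kb, had 1483, 1359, 1316 and 1894 normalised reads with both agents, 1266, 1272, 1319 and 1227 with myoglobin and 1264, 1163, 1209 and 1175 with vehicle. It rose with both agents against vehicle by 0.32 ± 0.084 (adjusted p = 0.0108), or 0.20 without replicate 4 (adjusted p = 0.0019), while 0.08 with myoglobin did not pass (adjusted p = 0.576). The 0.24 with added dexamethasone did not pass either (adjusted p = 0.108), but it passed without replicate 3 of the combination (0.30, adjusted p = 0.0496). Aldh1a2, between 106 and 159 normalised reads in all libraries, passed in no comparison. Aldh1a7, the neighbouring duplicate of Aldh1a1 in rodents, had 291, 290, 300 and 296 normalised reads with both agents, 235, 218, 257 and 224 with myoglobin, and 195, 203, 209 and 198 with vehicle. It rose by 0.21 ± 0.057 with myoglobin (adjusted p = 0.0159; 0.16 and adjusted p = 0.0592 without replicate 3 of myoglobin) and by a further 0.34 ± 0.057 with dexamethasone (adjusted p = 0.00229).

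Of 21 tested genes of retinoid handling, 3 rose and 6 fell with myoglobin, where 8.71% of all genes rose and 9.62% fell. Cyp26b1, which degrades retinoic acid, fell by 1.97 ± 0.23 (adjusted p = 1.59e-05), to 19.8 ± 3.4 normalised reads with myoglobin against 80.8 ± 15.6 with vehicle (SD, n = 4 each). Stra6, the membrane receptor for retinol-binding protein, rose by 0.71 ± 0.084 (adjusted p = 2.04e-05) and Dhrs9, a retinol dehydrogenase, by 0.47 ± 0.066 (adjusted p = 9.73e-05). Rdh12, a retinal reductase, fell by 0.37 ± 0.053 with myoglobin (adjusted p = 0.000122). It was the 1 gene of the list to rise with added dexamethasone, by 0.55 ± 0.053 (adjusted p = 1.62e-05). In that comparison 3.08% of all genes rose and 3.9% fell.

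Of 17 tested glutathione S-transferases, 2 rose and 3 fell with myoglobin, where 8.71% of all genes rose and 9.62% fell. With added dexamethasone 2 of the 17 rose and 0 fell by limma, where 3.08% of all genes rose and 3.9% fell. With both agents against vehicle 8 of the 17 rose and 2 fell, where 13.9% of all genes rose and 14.6% fell. Gsta3, an alpha-class GST, had 340, 294, 349 and 362 normalised reads with both agents, 297, 257, 339 and 265 with myoglobin, and 214, 193, 255 and 192 with vehicle. Every myoglobin library lay above every vehicle library, and Gsta3 rose by 0.44 ± 0.10 (adjusted p = 0.00609); against vehicle the combination stood 0.66 ± 0.10 higher (adjusted p = 0.000186). Gstp1, the pi-class enzyme, had 221, 229, 240 and 313 normalised reads with both agents, 211, 219, 243 and 208 with myoglobin, and 172, 157, 189 and 177 with vehicle. Its rise with myoglobin, 0.34 ± 0.098 (adjusted p = 0.023), missed the threshold without replicate 2 or 3 of myoglobin or replicate 2 of vehicle (0.29 to 0.34, adjusted p = 0.0511 to 0.0807). Of the 50-base words of its transcripts, 33.7% occur in other genes, so its reads may be divided with near-identical copies and its values are uncertain. The same holds in part for Gstm1 (18.9%) and for Gsta2. Gstt3 (12.5% of words) and Aldh4a1 (30%) instead share 13.6% and 32.5% of their exonic bases with other genes on the same strand. How reads on those bases were counted is not known, so their values are uncertain too.

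The theta-class genes Gstt1 and Gstt3 fell with myoglobin. Gstt1 had 257, 283, 265 and 276 normalised reads with both agents, 268, 278, 250 and 249 with myoglobin, and 372, 363, 341 and 333 with vehicle. Both myoglobin groups lay below vehicle, with falls of 0.38 ± 0.056 for the combination (adjusted p = 0.000117) and 0.43 ± 0.056 for myoglobin (adjusted p = 4.72e-05). Gstt3 had 410, 424, 428 and 450 normalised reads with both agents, 378, 362, 374 and 359 with myoglobin, and 446, 458, 452 and 445 with vehicle. It fell by 0.29 ± 0.041 with myoglobin (adjusted p = 0.0001) and rose by 0.22 ± 0.041 when dexamethasone was added (adjusted p = 0.00458). The combination and vehicle libraries overlapped, with a change of -0.07 that did not pass (adjusted p = 0.187), although it passed with library totals (-0.12, adjusted p = 0.0271), quantile normalization (-0.11, adjusted p = 0.0487) and quality weights (-0.10, adjusted p = 0.044). Gstt2, which lies in the same cluster, passed in no comparison, at 406 to 468 normalised reads in all libraries. Gsta2 had 18, 19, 23 and 19 normalised reads with both agents, 30, 17, 26 and 17 with myoglobin and 39, 36, 35 and 28 with vehicle. Its fall of 0.63 ± 0.20 with myoglobin (adjusted p = 0.0432) missed the threshold without replicate 2 of the combination, replicate 2 or 4 of myoglobin, or replicate 1, 2 or 3 of vehicle (adjusted p = 0.0541 to 0.131), and 49.8% of its 50-base words occur in other genes.

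The mu-class genes lie side by side on chromosome 3. With added dexamethasone 1 of the 6 tested, Gstm7, rose, where 3.08% of all genes rose and 3.9% fell. Gstm6 had 74 to 100 normalised reads with both agents and 52 to 67 with myoglobin. Its 0.43 ± 0.14 did not pass (adjusted p = 0.0902), but it passed with quality weights (0.46, adjusted p = 0.0376). Gstm7 had 474, 415, 410 and 447 normalised reads with both agents, 313, 277, 315 and 266 with myoglobin, and 365, 303, 346 and 328 with vehicle. The libraries with dexamethasone lay above all others, with a rise of 0.58 ± 0.071 against myoglobin (adjusted p = 0.000176) and 0.38 ± 0.071 against vehicle (adjusted p = 0.00102). Its -0.20 with myoglobin alone did not pass (adjusted p = 0.0708), but it passed without replicate 2 of vehicle (-0.24, adjusted p = 0.0379), with each of 3 other scalings (-0.21 to -0.22, adjusted p = 0.0408 to 0.0487) and with quality weights (-0.19, adjusted p = 0.0358). With both agents against vehicle, Gstm6 rose by 0.69 ± 0.14 (adjusted p = 0.00231), Gstm1 by 0.35 ± 0.074 (adjusted p = 0.00251), Gstm5 by 0.21 ± 0.059 (adjusted p = 0.0169) and Gstm2 by 0.21 ± 0.066 (adjusted p = 0.0253). The rise of Gstm5 missed the threshold without replicate 3 of vehicle (adjusted p = 0.0617), and that of Gstm2 without replicate 2 or 4 of vehicle (adjusted p = 0.0751 and 0.0522). Without replicate 4 of the combination the Gstm2 rise was 0.13 (adjusted p = 0.0305). Gstm1 had 667, 620, 663 and 825 normalised reads with both agents, 595, 618, 659 and 587 with myoglobin, and 555, 497, 578 and 534 with vehicle, and its 0.18 with myoglobin alone did not pass (adjusted p = 0.103), but it passed without replicate 4 of the combination (adjusted p = 0.0111), with only the 2 groups in the fit (adjusted p = 0.0185) and with quality weights (0.20, adjusted p = 0.00765).

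Gsta4, the GST that conjugates hydroxynonenal, a product of lipid peroxidation, had 587, 564, 549 and 820 normalised reads with both agents, 488, 535, 591 and 512 with myoglobin, and 476, 460, 518 and 515 with vehicle. It rose against vehicle with both agents by 0.34 ± 0.10 (adjusted p = 0.0219), a value that replicate 4 raised: without it the change was 0.20 (adjusted p = 0.0186). The Gsta4 rise missed the threshold without replicate 2 of vehicle (0.31, adjusted p = 0.0679), and the changes of 0.11 with myoglobin and 0.23 with added dexamethasone did not pass (adjusted p = 0.52 and 0.199). Gstk1, the kappa-class enzyme of mitochondria and peroxisomes, had 103, 115, 107 and 111 normalised reads with both agents, 111, 106, 97 and 96 with myoglobin, and 93, 106, 117 and 102 with vehicle. Its groups overlapped and it passed in no comparison. Gstz1, the zeta-class enzyme of tyrosine breakdown, Gsto1 of the omega class, Gstm4 and Gstcd did not pass either, although Gstcd passed against vehicle without replicate 1 of vehicle (-0.22, adjusted p = 0.0418).

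**Figure D4:**
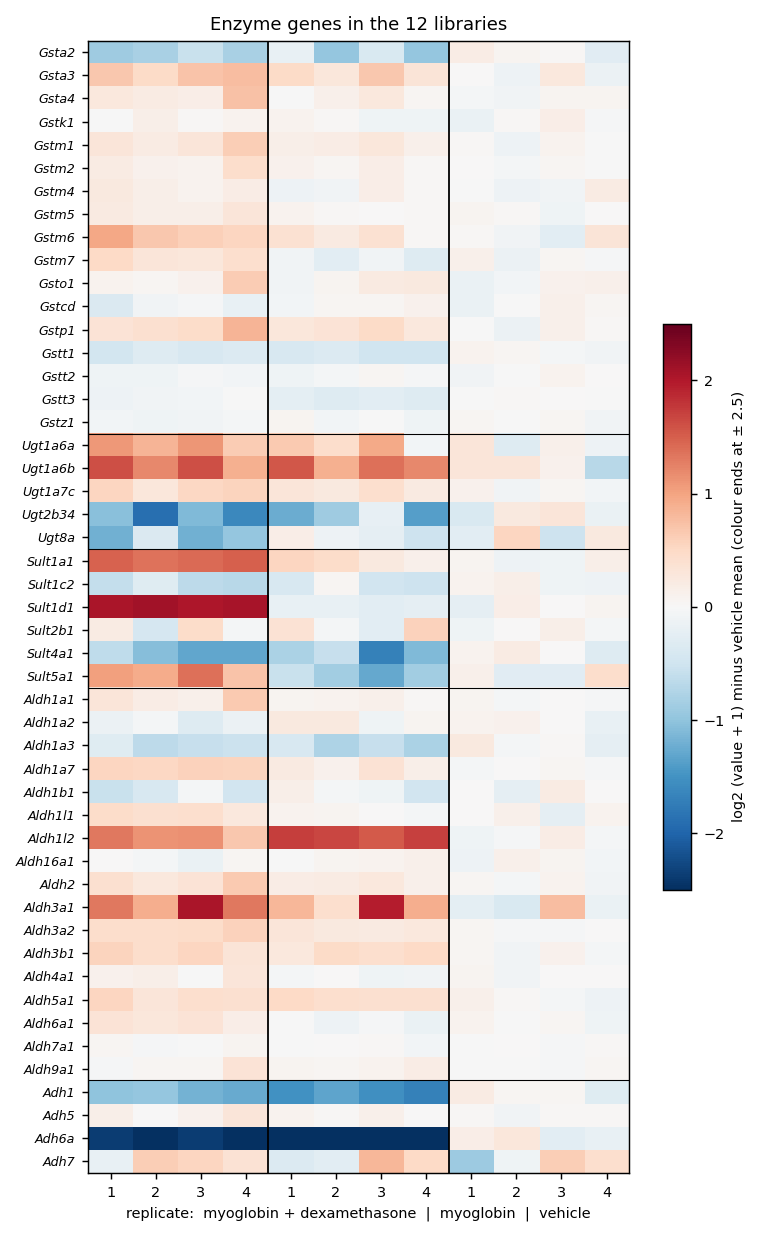
Log2 of the value plus 1, minus the vehicle mean, for the 49 tested genes (by family, down the page) in the 12 libraries (left to right, replicates 1 to 4 of myoglobin with dexamethasone, myoglobin and vehicle). Colours end at 2.5 either way. Sult1d1 is high only in the 4 libraries with dexamethasone, and Adh1 and Adh6a are low in all 8 with myoglobin. Gsta4 and Gsto1 stand out in replicate 4 of the combination. Adh6a, Sult5a1 and Ugt1a6b were tested only through the groups where they are high.

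Most of the UGT level came from the Ugt1a locus on chromosome 1, whose genes use a first exon of their own and share the rest. The annotated exons of Ugt1a6a, Ugt1a6b and Ugt1a7c share 50.3%, 60.6% and 54.6% of their bases with each other or with other genes on the same strand, so the division of reads among them is uncertain. The 7 Ugt1a genes summed to 460, 389, 461 and 437 normalised reads with both agents, 389, 360, 429 and 347 with myoglobin, and 332, 277, 319 and 283 with vehicle. Both myoglobin groups lay above vehicle and overlapped each other. Ugt1a7c had 359, 301, 353 and 362 normalised reads with both agents, 306, 293, 332 and 290 with myoglobin, and 266, 231, 257 and 236 with vehicle. It rose by 0.30 ± 0.069 with myoglobin (adjusted p = 0.00599) and by 0.47 ± 0.069 with both agents against vehicle (adjusted p = 0.000128). Its 0.17 with added dexamethasone did not pass (adjusted p = 0.169), but it passed without replicate 2 of the combination (0.23, adjusted p = 0.0481).

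Ugt1a6b was low, with 19, 14, 19 and 11 normalised reads with both agents, 18, 11, 16 and 14 with myoglobin, and 7, 7, 6 and 3 with vehicle; no vehicle library reached 10, so the gene was tested because of the myoglobin groups and had to differ. Its change was 1.25 ± 0.28 with myoglobin (adjusted p = 0.00523) and 1.33 ± 0.28 with both agents against vehicle (adjusted p = 0.00259), or 0.65 and 0.70 with a pseudocount of 10. Ugt1a6a had 73, 62, 74 and 53 normalised reads with both agents, 54, 46, 66 and 32 with myoglobin, and 42, 27, 37 and 31 with vehicle. It rose by 0.92 ± 0.20 with both agents against vehicle (adjusted p = 0.00342). Its 0.49 with myoglobin did not pass (adjusted p = 0.114), but it passed without replicate 4 of myoglobin (0.68, adjusted p = 0.0218), with quantile normalization (0.61, adjusted p = 0.0398) and with quality weights (0.52, adjusted p = 0.038).

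The UGTs outside that locus fell or did not pass. Ugt2b34 had 24, 13, 23 and 16 normalised reads with both agents, 21, 27, 44 and 19 with myoglobin, and 39, 60, 63 and 45 with vehicle. It fell by 1.41 ± 0.26 with both agents against vehicle (adjusted p = 0.00101). Its fall of 0.92 ± 0.26 with myoglobin (adjusted p = 0.0233) missed the threshold without replicate 1 or 4 of myoglobin or replicate 2 or 3 of vehicle (adjusted p = 0.0653 to 0.0802). Ugt8a, the ceramide galactosyltransferase of myelin lipids, had 22, 40, 22 and 26 normalised reads with both agents, 58, 47, 44 and 36 with myoglobin, and 43, 75, 36 and 61 with vehicle. It fell by 0.93 ± 0.24 with both agents against vehicle (adjusted p = 0.00935), and its -0.75 with added dexamethasone did not pass (adjusted p = 0.0737), but it passed without replicate 2 of the combination (-0.94, adjusted p = 0.0303). Of the 6 genes of glucuronic acid supply, 2 rose with myoglobin: Ugdh, which makes UDP-glucuronic acid, by 0.32 ± 0.076 (adjusted p = 0.00696) and Slc35b1, a nucleotide carrier of the endoplasmic reticulum, by 0.29 ± 0.046 (adjusted p = 0.000363). With added dexamethasone 0 of the 6 passed by limma, and 0 had an unadjusted p below 0.05. Of all genes tested, 8.71% rose and 9.62% fell with myoglobin, and 3.08% rose and 3.9% fell with added dexamethasone.

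Beside the 5 families, 23 tested carbonyl and quinone reductases and related enzymes held 7 that rose and 2 that fell with myoglobin. Of all genes tested, 8.71% rose and 9.62% fell with myoglobin, and 3.08% rose and 3.9% fell with added dexamethasone. The same shares apply to the other lists of this paragraph in those 2 comparisons. Dcxr, the xylulose reductase, rose by 0.55 ± 0.063 (adjusted p = 1.49e-05), Aldh18a1 by 0.41 ± 0.049 (adjusted p = 2.34e-05) and Nqo1, the quinone reductase that is a standard NRF2 target, by 0.90 ± 0.13 (adjusted p = 0.000159), whereas the epoxide hydrolase Ephx2 fell by 0.83 ± 0.15 (adjusted p = 0.00104) and the hydroxysteroid dehydrogenase Akr1c18 by 1.21 ± 0.40 (adjusted p = 0.0461). Dexamethasone raised 1 of the 23, Adhfe1, by 0.46 ± 0.076 (adjusted p = 0.00193). Of 12 tested genes of the mercapturate pathway, which trims glutathione conjugates, Ggt7 rose by 0.58 ± 0.18 with myoglobin (adjusted p = 0.0345) and Acy3 fell by 0.39 ± 0.11 (adjusted p = 0.0262), and with added dexamethasone Ggt5 rose by 0.61 ± 0.15 (adjusted p = 0.0205), Kyat1 rose by 0.26 ± 0.067 (adjusted p = 0.0325) and Aspa fell by 1.00 ± 0.29 (adjusted p = 0.0468). Of 7 other conjugating enzymes 1 fell with myoglobin, the methyltransferase Inmt, by 0.80 ± 0.16 (adjusted p = 0.00188). Of 18 tested regulators of these enzymes, 3 rose and 2 fell with myoglobin, where 8.71% of all genes rose and 9.62% fell. Ahrr, the repressor induced by the aryl hydrocarbon receptor, rose by 1.89 ± 0.31 (adjusted p = 0.000398), to 42 ± 12 normalised reads against 11.2 ± 5.32 with vehicle (SD, n = 4 each). Mafg and Bach1, partners at antioxidant response elements, rose by 0.29 ± 0.043 (adjusted p = 0.000153) and 0.27 ± 0.051 (adjusted p = 0.00128), and Nr3c2, the mineralocorticoid receptor gene, fell by 0.60 ± 0.10 (adjusted p = 0.000717). The glucocorticoid receptor gene Nr3c1 was the 1 regulator that passed with added dexamethasone, at -0.25 ± 0.054 (adjusted p = 0.0108). With both agents against vehicle, 13.9% of all genes tested rose and 14.6% fell. There 3 of the 6 genes of glucuronic acid supply rose and 0 fell, and 1 of the 11 of sulfate supply rose and 3 fell. Of the 23 reductases and related enzymes 12 rose and 1 fell, and of the 21 of retinoid handling 5 rose and 5 fell. In that comparison 0 of the 12 mercapturate genes passed by limma (at an unadjusted p below 0.05, 2 were higher and 3 lower), 1 of the 7 other conjugating enzymes rose and 2 fell, and 4 of the 18 regulators rose and 3 fell.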

How the data were processed

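Total RNA of 12 tubuloid libraries was sequenced as stranded messenger RNA, per the labels' protocols. Tools listed without roles in the submitters' processing notes are DESeq2 1.36.0, featureCounts 2.0.3, Picard 2.27.4, STAR 2.7.10a and Trimmomatic 0.39, and the build is mm10. The deposited values were treated as a normalised score, since they are reads divided by a size factor by the authors and rounded, as the steps in the values show; they are not counts, so no count model was used. The 12 libraries were assigned to 3 groups of 4 by their titles. Genes with at least 10 normalised reads in at least 4 libraries (14558 of 20819) were tested with limma-trend (R 4.3.3, limma 3.58.1) after adding 1 and taking log2, with the 3 groups in 1 fit, two-sided, and Benjamini-Hochberg adjustment over all genes of a comparison. The script was tested on simulated data. Exonic lengths and shared exons came from GENCODE M21, in which 20592 genes have the table's coordinates, and promoter windows from RefSeq on GRCm38.p6. Tables and plots used Python 3.11.15, pandas 2.3.3 and matplotlib 3.10.9.

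The members and the lists were chosen with earlier results of these data known. Named with statistics were up to 12 passing members in each direction of a comparison, 10 fixed enzymes, and the member of each family highest per kb with vehicle. Other members are given where their family is described. Of each list at most 3 passing genes in each direction were named, and some passing genes were left out. With both agents against vehicle the lists are given by counts only. Depth was 3.25 to 5.92 M estimated reads per library, and 4 libraries per group limit the precision. Alternatives were 3 other scalings, pseudocounts of 0.1 and 10, no filter and a minimum of 30, a replicate block, fits of 2 groups, quality weights, and leaving out each library in turn. Of the regulators that passed, 1 is not reported here by name.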

Additional observations from a re-analysis of the deposited data

Results flagged for a closer look

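In 6 of 147 groups of 4 libraries, 1 library stood apart from the other 3 by Dixon's test; chance gives about 1 in 20 groups. Of these, 3 were in replicate 4 of myoglobin with dexamethasone, the library with the fewest reads: Gsta4 had 820 normalised reads in it against 549 to 587 in the others of its group, Gsto1 had 860 against 574 to 598, and Aldh3a2 had 1205 against 1086 to 1100. Over the 49 tested genes that library's median deviation from the other 3 was 0.02 on the log2 scale, and over all 14558 genes 0.01. In replicate 2 of the same group Ugt1a7c had 301 normalised reads against 353 to 362. In the vehicle group Aldh3a1 had 66 in replicate 3 against 29 to 34, and Adh5 had 464 in replicate 2 against 504 to 509.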

How the results depend on the processing

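Over 147 results (49 genes in 3 comparisons) and 22 alternatives, 3105 of 3198 values stayed on their side of the threshold, 45 lost a call, 48 gained one, and 0 called values changed sign; 115 results kept their side under every alternative that gave them a value. Leaving out 1 library in turn, the number of members higher and lower was 8 to 13 and 6 to 8 with myoglobin against vehicle, 8 to 11 and 1 to 2 with added dexamethasone, and 22 to 24 and 8 to 9 with both agents against vehicle; the 2 came without replicate 2 of the combination, where Ugt8a passed too. Where too few libraries reached the minimum there was no value: Sult5a1 had 17 of 22, Adh6a 18, and Aldh1b1, Sult2b1 and Ugt1a6b 21. Outside the left-out libraries, the calls of Gsta2 with myoglobin (adjusted p = 0.115 and 0.0612) were lost with quantile normalization and with no filter, those of Sult5a1 with myoglobin with 5 settings, and that of Gstm2 with both agents against vehicle with only 2 groups in the fit (adjusted p = 0.0526); the cause was not tested.

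Same-numbered libraries deviated together in 9 of 12 pairs (correlation above 0.1; range -0.02 to 0.46, against -0.4 to 0.2 for other pairs), and a library correlated best with its own number in 19 of 24 cases, a hint from the data only. With the replicate number as a block, 14 members were higher and 4 lower with added dexamethasone in place of 10 and 1 (Aldh2, Aldh3a1, Aldh4a1 and Gsta3 higher and Aldh1a2, Gstcd and Ugt8a lower in addition). Aldh2 and Ugt1a6a were also called higher and Gstm7 and Sult1c2 lower with myoglobin, and Adh5 and Gsto1 higher and Gstcd lower with both agents against vehicle. The call of Sult5a1 with myoglobin was lost (adjusted p = 0.0527). Depth limits the genes near 10 normalised reads, Sult5a1, Adh6a and Ugt1a6b, whose fold changes depend on the pseudocount.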
